A study of Mus musculus with 15 samples.

Results

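The EGF receptor family and its ligands were followed in NMuMG mouse mammary epithelial cells through 10 genes, chosen by gene name: the receptors Egfr, Erbb2 and Erbb3 and the ligands Areg, Ereg, Btc, Epgn, Hbegf, Tgfa and Nrg1. Dataset 2 listed all 10 among 15023 genes, and dataset 1 listed 9 among 13893, with Epgn missing. RNA-Seq values were given for 15 samples as CPM, the reads of a gene scaled to the total of its library. Dataset 2 held 2 samples of NMuMG cells (treatment None in the labels, called shSCR, a nonspecific shRNA, in the study) and 2 of NMuMG shPCBP1 cells, which carry an shRNA against Pcbp1. Every line of dataset 1 was an NMuMG shPCBP1 line: the unaltered line, 3 CT clones given Cas9 with no gene-specific guide, 3 clones with FAM3C KO, 3 with LIFR KO, and a single FAM3C/LIFR Double KO. The clones were grown from discrete colonies after CRISPR-Cas9, and each line gave 1 RNA sample. Dataset 1 thus has no cells with normal Pcbp1. Nothing in the labels says that the replicates of dataset 2 were separate cultures, so p values measure only the spread between these samples.

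Ligands of this family are made as membrane-anchored precursors that metalloproteases cut free, and they act on the cell that made them or on its neighbors. Binding joins receptors in pairs, and their kinase domains start signaling through RAS and ERK and through PI3K and AKT. ErbB2 binds no known ligand itself and serves as a partner, and ErbB3 has a weak kinase and passes the signal on through its partner. In the mammary gland, amphiregulin (Areg) and Egfr are known for their part in ductal growth.

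Of the ligand genes, 4 lie side by side on chromosome 5 of GRCm38, within 375.5 kb (91027464 to 91402994), in the order Epgn, Ereg, Areg and Btc. Areg (ENSMUSG00000029378) spans 91139599 to 91148432 on the plus strand, and Btc (ENSMUSG00000082361) spans 91357261 to 91402994 on the minus strand. Epgn (ENSMUSG00000035020) spans 91027464 to 91035215 on the plus strand. The 250 bases before the start sites of these neighbors, from RefSeq promoters of GRCm38.p6, are shown because the genes lie together and differ widely in level. RefSeq places the start of Epgn inside the GENCODE span given here, so the last bases of its stretch lie within that span. Capitals mark the motif TGACGTCA, the cAMP response element (CRE).
Areg, chr5:91139349-91139598, plus strand: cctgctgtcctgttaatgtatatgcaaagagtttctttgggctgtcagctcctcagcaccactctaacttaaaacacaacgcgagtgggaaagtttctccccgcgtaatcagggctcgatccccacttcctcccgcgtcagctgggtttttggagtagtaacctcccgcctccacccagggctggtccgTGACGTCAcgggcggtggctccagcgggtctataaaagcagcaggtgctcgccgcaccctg
Btc, chr5:91402995-91403244, minus strand: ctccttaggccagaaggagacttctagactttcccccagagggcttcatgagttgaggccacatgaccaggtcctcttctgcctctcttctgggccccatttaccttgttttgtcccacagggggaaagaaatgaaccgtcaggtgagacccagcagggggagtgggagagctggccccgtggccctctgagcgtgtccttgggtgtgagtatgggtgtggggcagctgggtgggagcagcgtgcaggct
Epgn, chr5:91027267-91027516, plus strand: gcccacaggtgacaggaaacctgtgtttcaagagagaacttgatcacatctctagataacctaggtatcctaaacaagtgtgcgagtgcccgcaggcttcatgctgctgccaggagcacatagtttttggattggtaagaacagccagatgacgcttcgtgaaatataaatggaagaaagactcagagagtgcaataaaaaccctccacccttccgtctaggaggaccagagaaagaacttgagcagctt

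Promoter windows of 300 bases (250 before and 50 after the start site) were found for 6 of the 10 genes: Egfr, Erbb2, Areg, Tgfa, Btc and Epgn. They were searched on both strands for TTCNNNGAA (a STAT element), TGANTCA (AP-1) and TGACGTCA. The only match was the CRE of Areg, whose first base lies at position -61 from the start site. Of 32851 promoters, 8.3% held the STAT letters, 7.81% the AP-1 letters and 1.79% the CRE letters. A match describes the letters only.

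Taking the step between low values as 1 read implied totals of 16031859 to 46901675 reads per library in dataset 1 and 53030661 to 56497526 in dataset 2. Pcbp1 stood at 287 and 312 CPM in NMuMG and at 14.1 and 14.2 CPM in shPCBP1 of dataset 2. Fam3c was lower in all 3 FAM3C KO clones (26.4 to 42.9 CPM) than in the shPCBP1 lines (47 to 59.4 CPM), without passing the test (limma, adjusted p = 0.232). Lifr read 0.0001 CPM in both NMuMG samples and 2.94 and 2.4 CPM in shPCBP1 of dataset 2. Fam3c there read 25 and 26.6 CPM in NMuMG and 20.9 and 19.6 CPM in shPCBP1 (log2 -0.35, limma, adjusted p = 6.26e-05). The study describes FAM3C as upregulated after loss of Pcbp1 and links this to translation, which RNA levels do not measure. In dataset 1, the FAM3C KO clones read 13.5, 10.5 and 19.2 CPM of Lifr against 25.8 to 40.2 CPM in shPCBP1 (log2 -1.18, limma, adjusted p = 0.175). Clones 1 to 3 with LIFR KO read 34.9, 29.3 and 14.6 CPM of Lifr, and the double KO 4.36 CPM. The knockouts excised a short coding fragment, so the level of the transcript does not check those labels. Of 8 luminal or general epithelial markers, 5 were listed in dataset 1 and 4 in dataset 2, and their sum was 1212 to 3166 CPM over all libraries, while Epcam was not listed. LIFR KO clones 2 and 3 and the double KO stood apart from the other libraries of dataset 1: over 12603 genes, their log2 difference from the shPCBP1 mean ran against the GC content of the gene (Spearman's rho of -0.76, -0.74 and -0.70, against -0.29 to 0.24 in the other 8).

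Loss of Pcbp1 was first examined in dataset 2. All 3 receptors fell in shPCBP1 cells, 5 ligands rose (Areg, Btc, Ereg, Hbegf and Nrg1) and 1 ligand, Tgfa, fell. All 9 members that passed the filter on low values (a mean of 0.5 CPM) were called at an adjusted p under 0.07, the threshold of the study. The comparison called 42.1% of the 11384 tested genes higher and 38.0% lower, so a call alone sets no member apart. In bulk samples, fewer cells of a type and less RNA per cell cannot be told apart.

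Among the receptors, Erbb3 read 6.96 and 7.45 CPM in NMuMG and 1.16 and 1.11 CPM in shPCBP1. It fell by 2.56 on the log2(CPM + 0.1) scale (SE 0.11, n = 2 a group, limma, adjusted p = 2.88e-09), a 5.90-fold lower level and the widest change of the family. Egfr, the receptor of Areg and Tgfa, read 118 and 119 CPM in NMuMG and 71.7 and 72.5 CPM in shPCBP1, and fell by 0.71 on the log2 scale (SE 0.0246, limma, adjusted p = 5.32e-10). Both shPCBP1 samples lay below both NMuMG samples. Erbb2 changed least, from 21.9 and 22.5 CPM to 18.8 CPM in both samples, a fall of 0.24 on the log2 scale (SE 0.0436, limma, adjusted p = 0.000428).

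All 3 neighbors on chromosome 5 that were tested rose by a factor of 2.08 or more. Areg read 2.46 and 2.62 CPM in NMuMG and 7.96 and 7.52 CPM in shPCBP1, a 2.97-fold rise (log2 1.57, SE 0.0946, limma, adjusted p = 4.79e-08). Btc (betacellulin) went from 1.56 and 1.49 CPM to 3.67 and 3.88 CPM, a 2.39-fold rise (log2 1.26, SE 0.116, limma, adjusted p = 1.73e-06). Ereg (epiregulin) went from 10.4 and 9.59 CPM to 20.5 and 21.4 CPM, a 2.08-fold rise (log2 1.06, SE 0.0591, limma, adjusted p = 2.5e-08). Epgn, the remaining neighbor, was near the limit of detection: 0.0532 and 0.0378 CPM in NMuMG and 0.0001 and 0.0371 CPM in shPCBP1, equal to about 3, 2, 0 and 2 reads. It did not reach the filter, and no fold is given.

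The ligands outside this cluster split. Hbegf, a heparin-binding ligand of EGFR and ErbB4, read 28 and 27.6 CPM in NMuMG and 47.1 and 46.8 CPM in shPCBP1 (log2 0.75, SE 0.0332, limma, adjusted p = 3.63e-09). Nrg1 (neuregulin 1), a ligand of ErbB3 and ErbB4, read 30 and 29.8 CPM against 49.8 and 48.9 CPM (log2 0.72, SE 0.0326, limma, adjusted p = 4.37e-09). Thus Nrg1 was higher in the samples in which Erbb3 was lower. Tgfa, a ligand of EGFR, read 50.7 and 50.5 CPM in NMuMG and 34.6 and 36.6 CPM in shPCBP1, and fell by 0.51 on the log2 scale (SE 0.0359, limma, adjusted p = 1.89e-07).

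**Figure D1:**
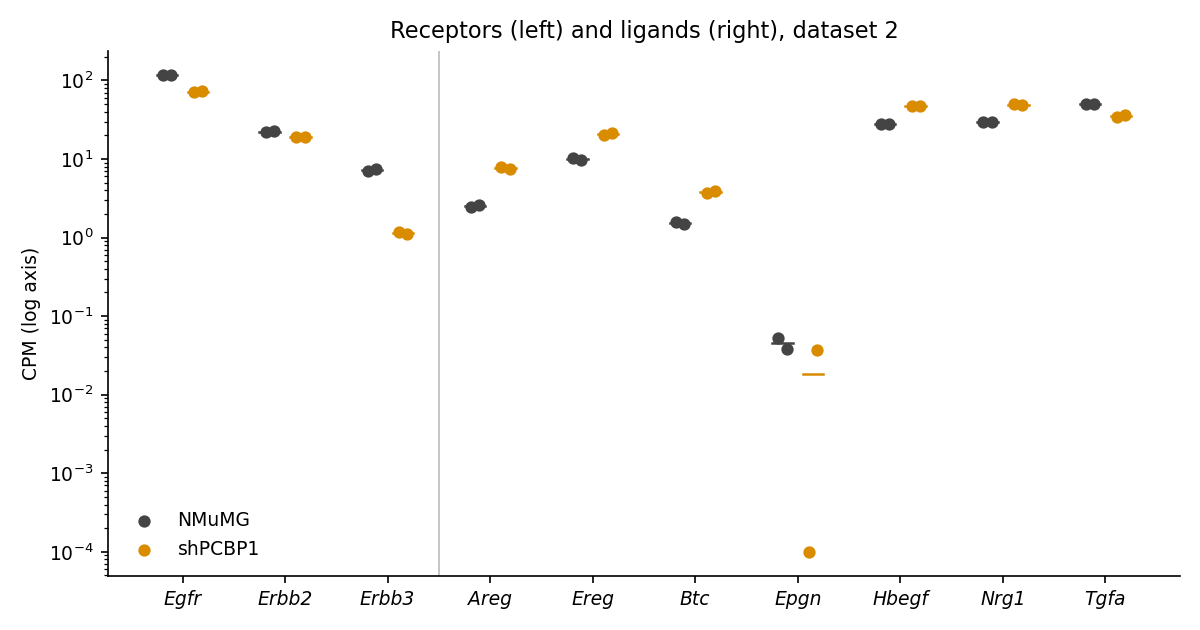
CPM on a log axis of the 10 genes in the 2 NMuMG and 2 shPCBP1 samples of dataset 2; points are samples and bars are group means, and the line divides receptors from ligands. The shPCBP1 points lie below the NMuMG points for the 3 receptors and Tgfa, above them for 5 ligands, and at 0.0001 CPM (no reads) for 1 sample of Epgn.

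Per kilobase of exon, the order of the levels differed between the cells. In both NMuMG samples Egfr came first, at a mean of 10.4 CPM per kb, followed by Tgfa at 7.79, Hbegf at 5.75 and Erbb2 at 4.26 CPM per kb. In shPCBP1, Hbegf came first at 9.71 CPM per kb, and Egfr and Areg followed at a mean of 6.37 each, changing places between the 2 samples. Summed per kilobase, the receptors were at 15.8 and 16 in NMuMG and 10.1 and 10.2 in shPCBP1, while the ligands were at 21.4 and 21.2 against 32.2 and 32.3. The ratio of ligand to receptor sums was 1.36 and 1.32 in NMuMG and 3.18 and 3.17 in shPCBP1.

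The rest of the pathway was read through 5 lists, beside 42.1% of all tested genes called higher and 38.0% lower. Of the rest of the family, Egf fell from 1.21 to 0.766 CPM (log2 -0.60), and Nrg4 stood at 2 CPM in both groups. Nrg2 (0.0532 and 0.0944 CPM in NMuMG, 0.448 and 0.702 CPM in shPCBP1) did not reach the filter. Erbb4 and Nrg3 were not listed in either dataset. Of 6 tested genes of ligand release, 2 rose and 2 fell, among them Adam15 (log2 0.80) and Adam17, the main protease that frees these ligands (log2 0.45). Of 10 genes listed as restraints of the receptors, 5 rose and 2 fell. Errfi1, which binds and blocks the EGFR kinase, was higher (log2 0.66), and Lrig2 was lower (log2 -0.83). Of 22 relay genes, 10 rose and 7 fell, with the adaptor Shc1 lower (log2 -1.12) and Hras higher (log2 0.84). Of 16 genes induced by ERK signaling, 8 rose and 6 fell, with the cyclin Ccnd1 (log2 0.98) and the AP-1 subunit Fosl1 (log2 1.57) higher. The list medians were -0.30, 0.08, 0.09, 0.08 and 0.12 on the log2 scale, in the order given, beside 0.03 over all genes and 0.72 over the 9 members.

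Markers of cell state moved in the same samples, where 42.1% of all tested genes were called higher and 38.0% lower. All 5 tested mesenchymal markers of the 7 listed rose, among them Fn1 (log2 3.45) and Vim (log2 1.19), and the summed level of the list was 535 to 556 CPM in NMuMG and 1311 to 1345 CPM in shPCBP1. Of 4 tested epithelial markers, 3 fell and 1 rose, with Cdh1 at 234 and 149 CPM, and the sum was 2916 to 2970 against 2766 to 2823 CPM. Basal markers summed to at most 0.301 CPM, with Trp63 at no reads in both NMuMG samples. Markers of other cells summed to 1.15 CPM in both NMuMG samples and 1.76 to 1.79 CPM in shPCBP1, nearly all of it Cd68. Their part in the change of receptors and ligands was not tested.

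Knockout of FAM3C in shPCBP1 cells was compared next. None of the 9 members was called between FAM3C KO and shPCBP1, and in none did the groups stand apart, where 0.309% of 12621 genes were called, 10.1% did not overlap with FAM3C KO higher and 12.5% with it lower. At an unadjusted p under 0.05, 1286 genes and no member passed. The joint fit takes its spread from the LIFR KO clones too. With FAM3C KO and shPCBP1 fitted alone, 1040 of 12621 genes were called, and again no member. Egfr showed the widest difference, with 187, 206 and 169 CPM in the clones against 151, 151, 114 and 183 CPM in CT clones 1 to 3 and the unaltered line (log2 0.34, SE 0.202, limma, adjusted p = 0.655). The other 8 log2 fold changes lay between -0.18 (Hbegf) and 0.14 (Tgfa). Areg was at 31.2, 36.4 and 24.4 CPM in FAM3C KO and 26.6 to 34.4 CPM in shPCBP1 (log2 0.04, SE 0.167).

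Knockout of LIFR was accompanied by less Areg. The LIFR KO clones read 14.4, 15.6 and 20.2 CPM, and the shPCBP1 lines 26.6, 29.2 and 34.4 CPM in CT clones 1 to 3 and 27.8 CPM in the unaltered line. All 3 clones lay below all 4 lines. Areg fell by 0.82 on the log2 scale (SE 0.167, 1.77-fold, n = 3 and 4, limma, adjusted p = 0.039), beside a median of -0.16 over all genes. It was the only member called, where 6.47% of genes were called, 3.95% did not overlap with LIFR KO higher and 13.2% with it lower. The call was lost with a GC correction (log2 -0.73, limma, adjusted p = 0.104), with median-ratio rescaling (log2 -0.66, adjusted p = 0.0724) and with the 2 groups fitted alone (adjusted p = 0.0866). It was also lost without FAM3C KO clone 1, LIFR KO clone 2 or any one shPCBP1 line (adjusted p = 0.0721 to 0.141). Over all genes these settings called 33, 481, 34 and, with single libraries left out, 5 to 159 genes, against 816 in the test above. The direction held in all 22 alternatives. With all 3 clones below all 4 lines, only the GC correction and median-ratio rescaling could have reversed it. Fitted from clone 1 as the single LIFR KO sample, the log2 fold change of Areg was -1.03 (limma, adjusted p = 0.0596), a test that assumes this lone sample varies like the other groups.

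The remaining members did not pass this test. Erbb2, the member with the highest GC content (57.3%), read 68.3 (clone 1), 37.7 (clone 2) and 43.5 CPM (clone 3) with LIFR KO and 61.4 to 66.4 CPM in shPCBP1 (log2 -0.40, SE 0.182, limma, adjusted p = 0.143). Clones 2 and 3, the libraries that follow GC content, were low and clone 1 was not. Without clone 1 Erbb2 was called (log2 -0.65), as were 7232 of 12621 genes. After the GC correction Erbb2 was at 56 to 62.7 CPM in LIFR KO and 51.6 to 56.4 CPM in shPCBP1, and the difference turned (log2 0.12, limma, adjusted p = 0.485). Ereg, among the members with the lowest GC content (39.2%), went the other way in the same clones: 57.4 and 58.1 CPM in clones 2 and 3, 26.8 CPM in clone 1 and 41.8 to 57.1 CPM in shPCBP1. After the correction Ereg was at 31.3, 42.5 and 43.1 CPM in clones 1 to 3 and 47.4 to 60.4 CPM in shPCBP1 (log2 -0.42, limma, adjusted p = 0.195). Btc, with 37.7% GC, was then at 3.39 to 4.88 CPM against 4.94 to 9.31 CPM (log2 -0.65, limma, adjusted p = 0.184). Areg, Ereg and Btc were thus the 3 members with all corrected LIFR KO values below all shPCBP1 values, as were 6.16% of 12603 genes, a count made after seeing the data. Egfr ranged from 146 to 254 CPM and Nrg1 from 138 to 189 CPM in LIFR KO, overlapping with shPCBP1 (114 to 183 and 155 to 194 CPM). Erbb3, Hbegf, Tgfa and Btc had log2 fold changes of -0.57, -0.18, -0.19 and -0.21, with adjusted p from limma of 0.318, 0.472, 0.282 and 0.555.

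**Figure D2:**
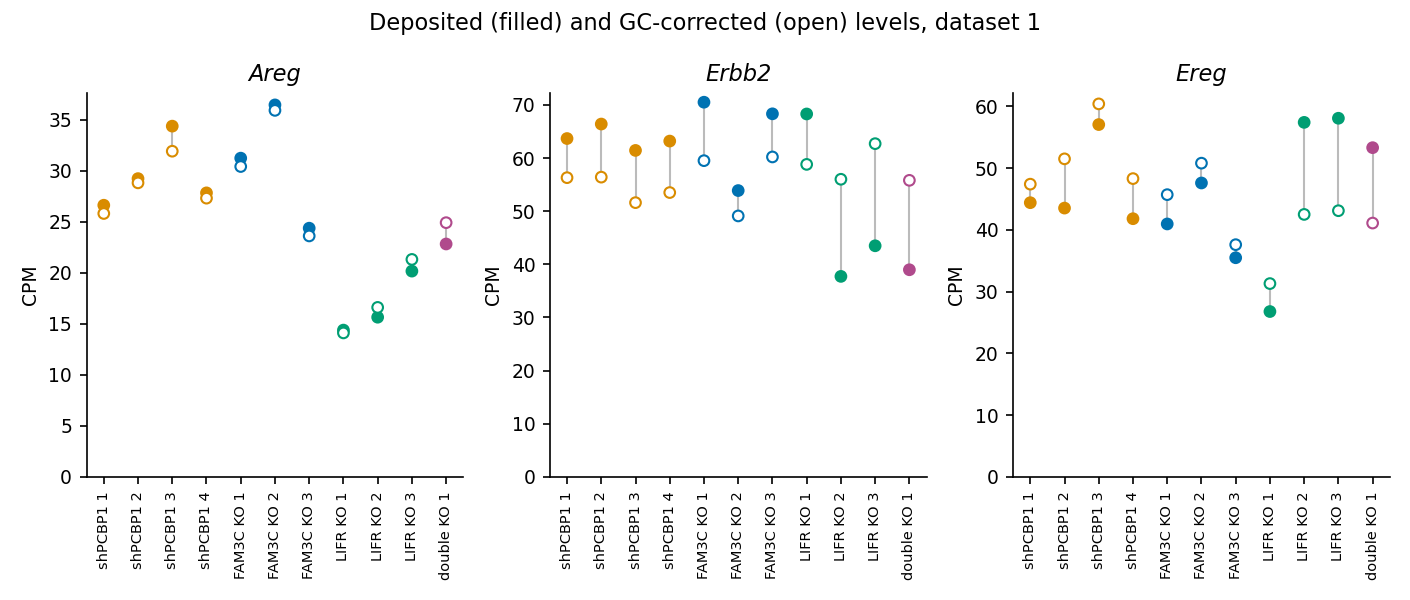
CPM of Areg, Erbb2 and Ereg in the 11 libraries of dataset 1 as deposited (filled) and after a GC correction (open); libraries are named by group and number, and shPCBP1 4 is the unaltered line. Areg stays lowest in the LIFR KO clones (14.1 to 21.3 CPM corrected), while Erbb2 in LIFR KO 2 and 3 moves from 37.7 and 43.5 to 56 and 62.7 CPM and Ereg from 57.4 and 58.1 to 42.5 and 43.1 CPM.

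The knockouts were compared directly because both comparisons above share the 4 shPCBP1 lines. Areg was higher in FAM3C KO than in LIFR KO, with no overlap (log2 0.87, SE 0.179, n = 3 a group, limma, adjusted p = 0.0387). Here 8.28% of genes were called, 16.1% did not overlap with FAM3C KO higher and 6.73% with it lower. This call too was lost with the GC correction (log2 0.79, limma, adjusted p = 0.0887) and with the 2 groups fitted alone (adjusted p = 0.2). It was also lost without any one of the FAM3C KO clones or LIFR KO clone 2 (adjusted p = 0.0875 to 0.146). Over all genes these settings called 77, 0 and, with single libraries left out, 1 to 101 genes, against 1045 in the test above. Tgfa read 45.6, 62.8 and 49.3 CPM in FAM3C KO and 41.5, 37.9 and 45.1 CPM in LIFR KO. Its groups did not overlap, but it did not pass the test (log2 0.33, SE 0.131, limma, adjusted p = 0.137).

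**Figure D3:**
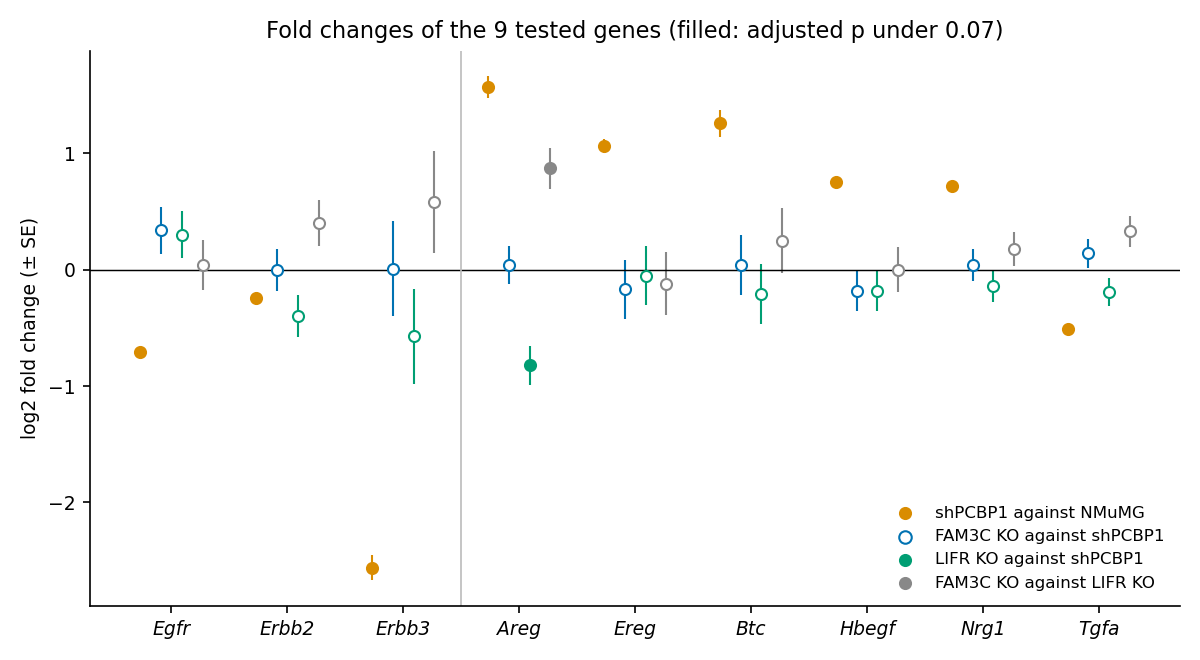
Log2 fold changes with standard errors of the 9 tested genes in 4 comparisons; filled points passed an adjusted p under 0.07. All 9 are filled for shPCBP1 against NMuMG, none for FAM3C KO against shPCBP1, and Areg alone for the 2 comparisons with LIFR KO.

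In the pathway lists, no gene was called between FAM3C KO and shPCBP1. The smallest adjusted p from limma in each list belonged to Egf (log2 -0.07, adjusted p = 0.963), Adam9 (log2 0.22, adjusted p = 0.768), Socs5 (log2 0.47, adjusted p = 0.195), Sos1 (log2 0.64, adjusted p = 0.257) and Etv5 (log2 0.53, adjusted p = 0.277). Between LIFR KO and shPCBP1, 2 of 22 relay genes fell, beside 6.47% of all genes called: Shc1 (log2 -0.54, limma, adjusted p = 0.0595) and Mapk3, which encodes ERK1 (log2 -0.63, adjusted p = 0.0601). At a threshold of 0.05 neither would be called, and no gene of the other 4 lists was called. Fosl1, at 18.8 against 29.7 CPM, had the smallest adjusted p of the 16 ERK-induced genes (log2 -0.74, limma, adjusted p = 0.124). Between FAM3C KO and LIFR KO, Mapk3 (log2 0.63, limma, adjusted p = 0.0647) and Lrig1, which promotes receptor degradation (log2 0.72, adjusted p = 0.039), were higher in FAM3C KO, where 8.28% of all genes were called. Beside these, the epithelial keratin Krt18 was lower in LIFR KO than in shPCBP1 (log2 -0.72, limma, adjusted p = 0.0663). The summed epithelial markers were at 1212 to 2092 CPM against 2466 to 3166 CPM, though Cdh1 overlapped (268 to 344 against 292 to 346 CPM). The summed mesenchymal markers were at 1276 to 1933 CPM against 1770 to 2019 CPM, with none called. Krt18 (log2 0.86, limma, adjusted p = 0.0466) and the mesenchymal Fn1 (log2 0.91, adjusted p = 0.0535) were higher in FAM3C KO than in LIFR KO. The part of these markers in the level of Areg was not tested. The LIFR KO group includes libraries that follow GC content, and GC-corrected results are not given for these lists and markers. Over all genes, the GC correction called 33 genes between LIFR KO and shPCBP1, against 816 without it. Between FAM3C KO and LIFR KO it called 77, against 1045.

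The double KO, a single library, was set beside the shPCBP1 lines without a test. The share of all genes outside the shPCBP1 range was not counted, so a place outside it sets no member apart. Areg read 22.8 CPM, below the shPCBP1 range of 26.6 to 34.4 CPM and above the LIFR KO clones. Erbb2 (39 CPM), Hbegf (92.4 CPM) and Tgfa (42.1 CPM) were also below the range, and the other 5 members lay within it. This library follows GC content like LIFR KO clones 2 and 3. After the correction Areg (24.9 against 25.8 to 31.9 CPM) and Ereg (41.1 against 47.4 to 60.4 CPM) were below the shPCBP1 range. Tgfa was above it (50 against 40 to 47.9 CPM). Erbb2 (55.8 against 51.6 to 56.4 CPM), Hbegf (112 against 98.3 to 131 CPM) and the remaining members lay within it.

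**Figure D4:**
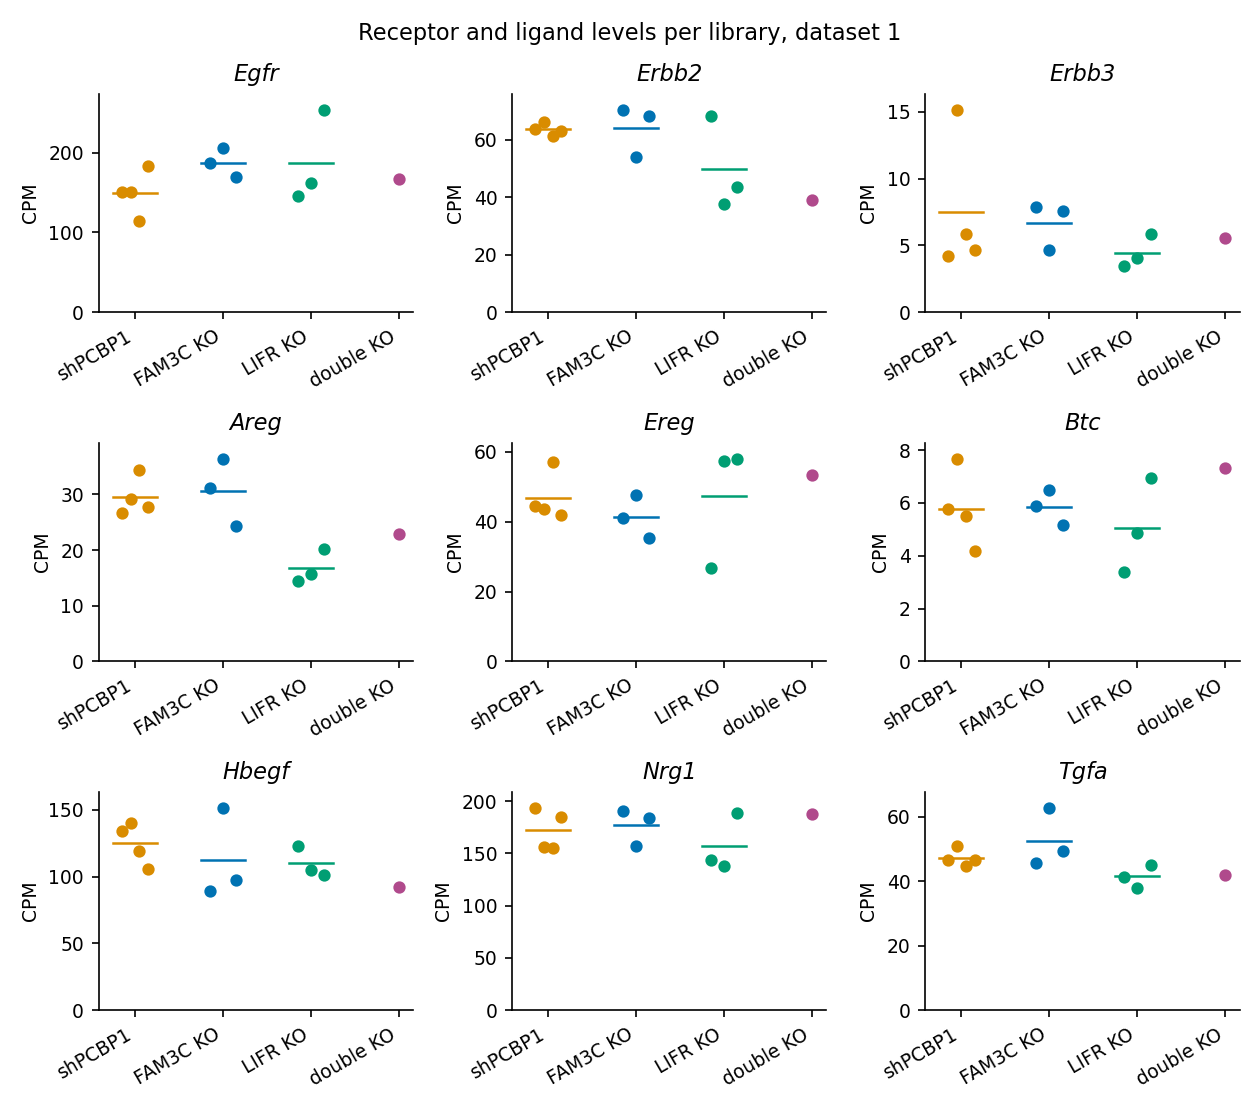
CPM of the 9 listed genes in each library of dataset 1, with points for lines and bars for group means; the double KO is 1 library. Areg is lower in the 3 LIFR KO clones (14.4 to 20.2 CPM) than in every shPCBP1 line and FAM3C KO clone, and Erbb3 is highest in CT clone 2 (15.2 CPM).

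Per kilobase of exon in the shPCBP1 lines of dataset 1, Hbegf stood at 25.8 ± 3.19 (SD, n = 4) and Areg at 24.3 ± 2.82 CPM per kb, and these neighbors changed places between lines. Nrg1 followed at 16.6 ± 1.88, then Egfr at 13.2 ± 2.49, Erbb2 at 12.2 ± 0.374 and Ereg at 11.3 ± 1.69 CPM per kb, of which the last 3 did not differ beyond their spread. Tgfa was at 7.27 ± 0.411, and Btc (1.28 ± 0.319) and Erbb3 (1.24 ± 0.86 CPM per kb) were lowest and could not be ordered. In LIFR KO clones Areg stood at 13.8 ± 2.51 CPM per kb (SD, n = 3), behind at least 3 other members in each clone. The datasets were normalized separately, so shPCBP1 levels of one are not compared with those of the other.

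Over the 11 libraries of dataset 1, the genes whose log2 levels ran most like Egfr were Trim6, Tmprss11f and Gm15107 (Pearson's r of 0.92, 0.90 and 0.89). For Nrg1, the ligand with the highest mean CPM, they were Sult1c2, Car12 and Sertad4 (0.93, 0.92 and 0.92). Among the members, Areg and Tgfa ran most alike (0.72) and Erbb2 and Ereg least (-0.71). The 11 libraries include the 3 whose differences followed GC content.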

How the data were processed

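RNA was depleted of rRNA and sequenced as directional paired-end libraries. The authors trimmed the reads, aligned them to GRCm38 with Bowtie2 in Partek Flow and deposited CPM per gene and sample. Dataset 2 also held the authors' group means and fold changes, which were not used. In dataset 2 the lowest value, 0.0001, stands for no reads. In dataset 1 the lowest value equals 1 step between low values, and whether it stands for 0 or 1 read is not given in the sources used here. With a tolerance of 0.1, 0.905 to 0.944 of low values were whole multiples of 1 read, too few to recover counts, so no count test was run.

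The members and lists were chosen with earlier results of these data known. Values were tested as log2(CPM + 0.1), which understates changes of low genes, in R 4.3.3 by limma 3.58.1, allowing a mean-variance trend, over genes averaging 0.5 CPM or more (12621 in dataset 1, 11384 in dataset 2), with Benjamini-Hochberg adjustment over all genes and a threshold of 0.07. The 3 groups of dataset 1 were fitted together, without the double KO. Named genes were the members, the targeted genes, the 2 genes of each list with the smallest adjusted p, and the 3 genes most like Egfr and Nrg1, of which some list examples are given by count only. Alternatives were other pseudocounts, filters, thresholds and scalings, a GC correction (loess, span 0.3), the replicate block and leaving out each library. Levels per kilobase used the exon union of GENCODE M21, whose gene starts matched those of 14269 of 14795 genes of dataset 2 but only 302 of 13870 of dataset 1, so lengths and GC content of dataset 1 rest on an annotation that may not be the one its reads were counted with. The scripts were tested on simulated data. Python 3.11.15 and matplotlib 3.10.9 drew the figures.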

Additional observations from a re-analysis of the deposited data

Results flagged for a closer look

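Erbb3 in CT clone 2 stood apart from the other shPCBP1 lines of dataset 1, at 15.2 CPM against 4.2 to 5.84 CPM. Ereg in CT clone 3 did so at 57.1 CPM against 41.8 to 44.4 CPM. A gap this wide relative to the range of 4 lines is met by chance in about 1 of 20 groups, and 9 genes were looked at. Areg differed between the knockouts, with FAM3C KO higher than LIFR KO by 0.87 on the log2 scale (limma, adjusted p = 0.0387).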

How the results depend on the processing

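For shPCBP1 against NMuMG, all 9 members were called under every setting that kept every sample, except a fold of at least 1.5. That fold left 7 (Tgfa and Erbb2 were lost). No member changed direction under any setting. The groups overlapped in none of the 9, so only median-ratio rescaling could have reversed a direction. For FAM3C KO against shPCBP1, 0 members were called under every setting, also without LIFR KO libraries 2 and 3, a setting chosen after seeing the data.

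Against shPCBP1, LIFR KO had 1 member called and 0 with the 2 groups fitted alone, the GC correction with or without the replicate block, median-ratio rescaling or the replicate block, and 0 to 2 when single libraries were left out. It was 0 without FAM3C KO clone 1, LIFR KO clone 2 or any one shPCBP1 line, and 2 without LIFR KO clone 1. Without that clone, 7232 of 12621 genes were called. FAM3C KO against LIFR KO had 1 member called, 0 with the 2 groups alone, the GC correction with or without the block, or the block, and 0 to 3 when single libraries were left out. It was 0 without any one FAM3C KO clone or LIFR KO clone 2, and 3 (Areg, Erbb2 and Ereg) without LIFR KO clone 1. Without LIFR KO clone 1, 6674 of 12621 genes were called. The replicate block called 10 of all genes for LIFR KO against shPCBP1 and 0 for FAM3C KO against LIFR KO. With the GC correction and the block, 0 genes were called in both. Over 22 alternatives the adjusted p of Areg from limma ranged from 0.00661 to 0.283 (11 called) for LIFR KO against shPCBP1 and from 0.00738 to 0.2 (14 called) for FAM3C KO against LIFR KO, and its direction held. The cause was not tested. With no overlap of Areg between the groups, only the GC correction and median-ratio rescaling could have reversed its direction.

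Same-numbered samples did not deviate together (correlations of -0.18 to 0.15 in dataset 1 and 0.05 in dataset 2), so they share only a number. With the replicate block Areg was at log2 -0.85 (limma, adjusted p = 0.149) in LIFR KO against shPCBP1 and 0.87 (adjusted p = 0.0989) in FAM3C KO against LIFR KO.

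Uncalled members changed direction as follows. In FAM3C KO against shPCBP1, the block gave Erbb2 -0.0003, Erbb3 -0.14 and Btc -0.10, the GC correction with the block Erbb3 -0.11 and Btc -0.14, the GC correction Btc -0.011, and a pseudocount of 1 CPM Erbb3 -0.003. In LIFR KO against shPCBP1, the GC correction gave Erbb2 0.12, Hbegf 0.072 and Tgfa 0.035, with the block Erbb2 0.11 and Tgfa 0.033, median-ratio rescaling Ereg 0.11 and Nrg1 0.017, and clone 1 alone Egfr -0.016 and Erbb2 0.10. In FAM3C KO against LIFR KO, the GC correction gave Erbb2 -0.074, Ereg 0.20 and Hbegf -0.22, with the same values with the block, median-ratio rescaling Egfr -0.10 and Hbegf -0.14, and clone 1 alone Erbb2 -0.098, Ereg 0.61 and Hbegf -0.17. Leaving out single libraries gave, in FAM3C KO against shPCBP1, Erbb2 -0.069 to 0.12, Erbb3 -0.19 to 0.42, Areg -0.09 to 0.2, Btc -0.1 to 0.19 and Nrg1 -0.013 to 0.13. In LIFR KO against shPCBP1 it gave Ereg -0.24 to 0.32 and Btc -0.47 to 0.04. In FAM3C KO against LIFR KO it gave Egfr -0.12 to 0.28, Ereg -0.49 to 0.066, Hbegf -0.23 to 0.15 and Btc -0.00044 to 0.51. With 2 to 4 samples a group, small differences of low genes such as Epgn were not detectable at this depth.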
